A study of Mus musculus with 4 samples.

Results

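The mitotic machinery was described through 50 genes of the kinetochore, the spindle checkpoint and the mitotic kinases, together with cyclins, chromosomal passengers, condensin and proteins of the spindle and of cell separation. Members were chosen by gene name: every probe set whose platform annotation named exactly 1 gene, that gene being on the list, was taken. The rule uses no measured value, although the list was drawn up with earlier results of these data known. Of the 50 genes, 49 had such a probe set, among 18193 genes named on the array, and Ccnb1 was not analysed here. These 49 genes had 108 probe sets, of which 97 were bright enough to be tested, with at least 1 for every gene. The samples were 2 sorted populations of KSL cells: hematopoietic stem cells (HSC), which lacked CD34, and multipotent progenitors (MPP), which carried it, both from mice of the C57BL/6 background. KSL cells are a fraction defined by surface markers that holds the earliest blood-forming cells. Each group had 2 arrays, labelled as biological replicates. Separate animals are not mentioned, and a p-value therefore speaks only of the spread among these arrays. No genotype other than the C57BL/6 background, treatment or age was given in the sources used here.

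In a dividing cell, Cdk1 bound to a cyclin drives entry into mitosis, and Aurora and Polo kinases organise the spindle and the centromere. Kinetochores, built on centromeric chromatin, hold microtubules, and the spindle checkpoint keeps the anaphase-promoting complex (APC/C) from acting until every chromosome is attached. APC/C with Cdc20 then marks securin and the mitotic cyclins for destruction, separase opens cohesin, and the cell divides. Most adult HSC are known to rest outside the cell cycle, whereas early progenitors divide more often.

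Most of the mitotic genes had less signal in HSC than in MPP. Of 49 tested genes, 44 were lower in HSC, 0 were higher and 5 (Cdc25b, Wee1, Foxm1, Fzr1 and Pttg1) did not pass (limma, adjusted p under 0.05 over all 27022 probe sets tested). At an unadjusted p under 0.05, 46 were lower and 1 (Pttg1) was higher. Among all 12382 genes tested, 731 (5.9%) were lower in HSC and 955 (7.71%) were higher. Signal is given in arbitrary units, and a difference is HSC minus MPP on the log2(signal + 6.01) scale with its standard error (SE). A fold is taken on that same scale, so that dim genes appear to change less than they do. Only a fold given as "at least" is taken on the signal without the added 6.01. The median difference of the mitotic genes was -2.10, against 0.10 for all genes tested. The lower genes fell by 1.64-fold (Bub3) to 7.67-fold (Hmmr, whose log2 difference of -2.94 was -2.20 without HSC replicate 2), with adjusted p between 2.11e-05 and 0.0131.

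The separation held for individual arrays as well. Both HSC signals were under both MPP signals for 47 of the 49 genes, against 23.4% of all genes tested. The difference was below -1 for 43 genes and below -2 for 28, and 1.04% of all genes were below -2. For 41 genes the higher HSC array lay more than 1 log2 unit under the lower MPP array, which was so for 2.43% of all genes. The median signal of the 49 genes was 91.9 and 84.9 in HSC, compared with 487 and 379 in MPP. In these bulk samples, fewer dividing cells and less of each transcript per cell cannot be told apart.

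**Figure D1:**
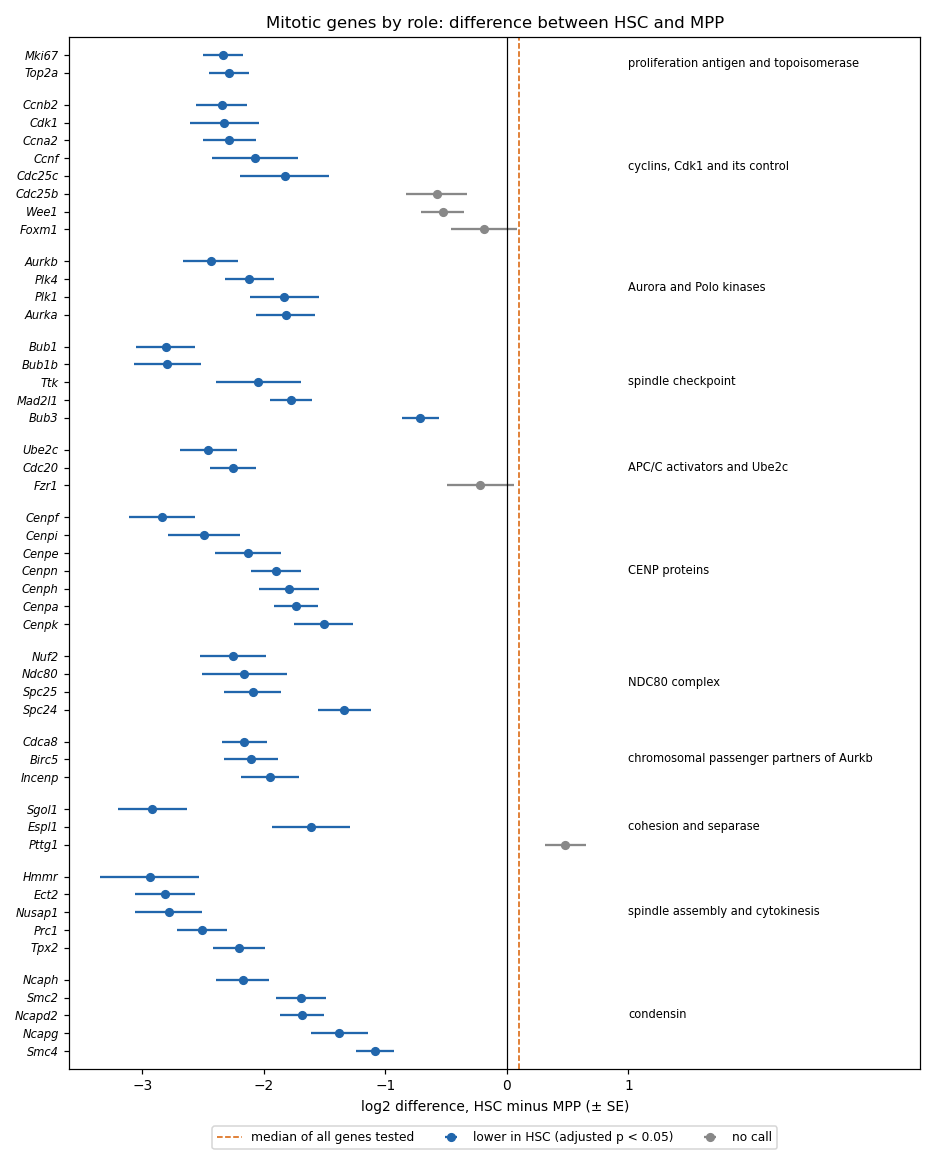
Difference between HSC and MPP for the 49 tested mitotic genes, in groups by role. The x axis is the log2 difference with its SE, each point is 1 gene (its brightest tested probe set), and the dashed line is the median of all genes tested at 0.10. Of the genes, 44 lie to the left as lower in HSC, and Pttg1 at 0.48 is the one to the right of 0.

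At the level of probe sets, 69 of the 97 were lower in HSC, 0 were higher and 28 did not pass, 22 of which were still below 0. At an unadjusted p under 0.05 in limma, 77 were lower and 2 (both of Pttg1) were higher. The 11 untested probe sets were too dim, and when the filter on dim probe sets was dropped 42 of the 49 genes were lower. Over all probe sets, 1257 (4.65%) were lower and 1611 (5.96%) were higher. The lower ones numbered 623 without MPP replicate 1, 568 without MPP replicate 2 and 1908 without HSC replicate 1, and the higher ones 1026 without MPP replicate 2. Several tested probe sets were available for 32 genes, and in 29 of these all lay below 0, while all were called lower in 16. Ccnf, Bub1, Bub3, Ttk, Cenpa, Cenpf, Cenpk, Spc25, Incenp, Nusap1, Tpx2, Hmmr and Smc2 were called lower by their brightest probe set and had at least 1 other that did not pass. Of the 48 probe sets that were not the brightest of their gene, 25 were lower in HSC and 43 were below 0. A probe set whose name ends in _x, _s or _a can bind several transcripts, and 21 genes were represented by one.

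The split between higher and lower genes depended on how the arrays were scaled, while the count of mitotic genes moved by 1. With the array medians made equal, 1345 genes were lower and 620 were higher, and the median of all genes moved from 0.10 to -0.14. The mitotic genes then had a median of -2.34, with 45 lower and 48 of 49 below 0. Leaving out 1 array moved the number of lower genes overall more than it moved the mitotic ones. It was 373 without MPP replicate 1 and 351 without MPP replicate 2, while 42 mitotic genes were lower in each case. Genes higher in HSC numbered 603 without MPP replicate 2.

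**Figure D2:**
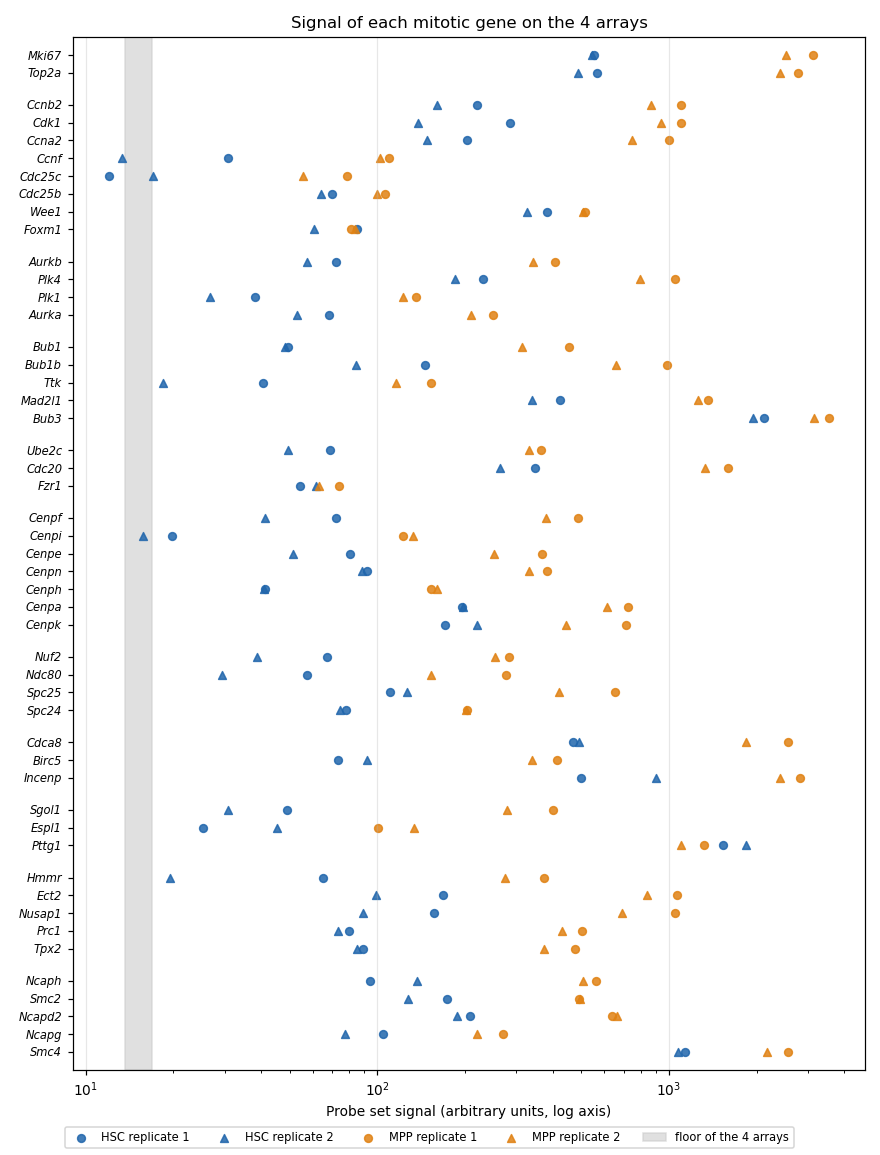
Signal of the 49 mitotic genes on each of the 4 arrays. The x axis is probe set signal in arbitrary units on a log scale, circles and triangles are replicates 1 and 2, and the grey band spans the arrays' floors from 13.6 to 16.9. Both HSC points lie left of both MPP points for 47 genes, and 1 HSC array reaches its floor for each of Ccnf, Cdc25c and Cenpi.

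Array-wide values were read beside these genes. Median signals were 26.1 and 26.9 in HSC and 22.0 and 21.3 in MPP, and the floor, each array's brightest Bacillus subtilis control probe set, was 13.6 to 16.9. The 3' to 5' signal ratio of actin, a measure of RNA quality, was 9.42 on the array of HSC replicate 2 and 4.99 to 5.26 on the others. Mitotic genes were brighter on HSC replicate 1 than on replicate 2 in 38 of 49 cases (50.4% of all genes), and without replicate 2 the median difference was -1.96 with 44 genes lower. They were brighter on MPP replicate 1 than on replicate 2 in 43 of 49 cases (52.2% of all genes). Their median absolute gap between the replicates was 0.35 log2 units in HSC and 0.25 in MPP, against 0.28 and 0.22 for all genes.

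Surface and lineage markers moved with the groups too. Of the sort antigens in the labels, Cd34 was 469 and 235 in HSC and 1967 and 2302 in MPP, the order the labels give. Kit, carried by KSL cells of both groups, was higher in HSC, at 1783 and 1415 against 995 and 1031 (0.65 ± 0.17, adjusted p = 0.0328). Among markers known from other work, Slamf1 and Procr were higher in HSC, and Flt3 and Cd48 lower. Granulocyte precursor markers were lower in HSC for 3 of 5 tested (Mpo, Prtn3 and Ctsg), with summed signals of 1069 to 1584 in HSC and 6909 to 8216 in MPP. Macrophage and dendritic markers were lower for 2 of 5 (Csf1r and Mpeg1), with sums of 143 to 186 and 505 to 1047. The other 3, Cd14 (1.18), Itgax (0.31) and Adgre1 (0.12), lay above 0 without passing. Megakaryocyte markers were higher for 3 of 5 (Pf4, Gp9 and Vwf), with sums of 1921 to 1932 and 385 to 528. Gp1bb lay below 0 (-0.20) without passing. Erythroid markers were higher for 2 of 5 tested (Klf1 and Ermap), with sums of 376 to 502 and 126 to 137. Hba-a2 lay below 0 (-0.63) without passing. None of 3 B cell markers tested passed in limma (0 at an unadjusted p under 0.05), with sums of 161 to 200.0 in HSC and 158 to 186 in MPP. The 1 tested T cell marker, Cd8a, did not pass either (44.4 to 46.2 and 16.0 to 30.3). Whether these marker signals came from other cells or from the HSC and MPP themselves was not tested, nor was any part in the mitotic difference.

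The letters of the members' promoters were read as well, whatever the call of the gene. RefSeq (assembly GRCm38.p6) gave 46 windows for 41 of the 50 genes (that of Ccnb1 included), each from 250 bases before to 50 bases after the annotated start, and the windows of 1 gene can overlap, as for Bub3, Ect2 and Prc1. Motif letters were searched on both strands: TTTGAA or TTCGAA for the cell cycle genes homology region (CHR), the element bound by the MuvB complex that controls late cell cycle genes, and CCAAT for the box bound by the factor NF-Y. CHR letters were in 31 of 46 windows (67.4%), against 19.2% of all 32851 windows and 17.6% of those of protein-coding genes. CCAAT letters were in 38 (82.6%), against 37.4% and 38.2%. Both were in 30 (65.2%), against 7.52% and 7.11%. CHR letters began within 50 bases of the start in 28 windows (60.9%), against 5.31% of all. E2F letters (TTCCCGCC, TTTCCCGC, TTTGGCGC or TTTCGCGC) were in 5 windows (10.9%), of Cdk1, Cenph, Cenpn, Ncapd2 and Ncapg, against 3.49% and 4.52%. In 1 of the 46 windows matches of different motifs shared bases. A match describes letters, not a bound site, and these shares were not tested.

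The 150 bases before the start are printed for 8 genes, 5′ to 3′ on the gene's strand, with CHR and CCAAT letters of either strand in capitals. Cdc20, Cdk1, Ube2c, Top2a and Ccnf were lower in HSC and hold both kinds of letters, Plk4 was lower and holds neither, and Fzr1 and Pttg1 did not pass. These 8 are examples. Cdc25b, which did not pass either and is not printed, has 1 CHR match and 1 CCAAT match in its window. CHR letters were in 30 of 42 windows of the lower members and in 1 of 3 windows of those without a call. The stretches lie at chr4:118437344-118437493 (Cdc20, minus strand), chr10:69352913-69353062 (Cdk1, minus), chr2:164769779-164769928 (Ube2c, plus), chr11:99024190-99024339 (Top2a, minus), chr17:24251410-24251559 (Ccnf, minus), chr3:40799801-40799950 (Plk4, plus), chr10:81378371-81378520 (Fzr1, minus) and chr11:43425982-43426131 (Pttg1, minus) of GRCm38.p6.
Cdc20: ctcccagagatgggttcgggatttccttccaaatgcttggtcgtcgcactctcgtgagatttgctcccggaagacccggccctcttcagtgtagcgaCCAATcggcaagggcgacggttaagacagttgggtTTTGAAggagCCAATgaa
Cdk1: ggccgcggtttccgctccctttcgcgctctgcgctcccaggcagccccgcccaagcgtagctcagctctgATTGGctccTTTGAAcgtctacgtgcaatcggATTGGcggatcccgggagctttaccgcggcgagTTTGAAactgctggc
Ube2c: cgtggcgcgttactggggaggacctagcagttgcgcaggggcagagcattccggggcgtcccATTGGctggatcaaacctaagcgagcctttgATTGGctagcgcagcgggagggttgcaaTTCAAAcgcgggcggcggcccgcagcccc
Top2a: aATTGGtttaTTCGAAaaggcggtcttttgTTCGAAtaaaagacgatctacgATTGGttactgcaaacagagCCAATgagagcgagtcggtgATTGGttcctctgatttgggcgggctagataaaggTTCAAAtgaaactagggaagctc
Ccnf: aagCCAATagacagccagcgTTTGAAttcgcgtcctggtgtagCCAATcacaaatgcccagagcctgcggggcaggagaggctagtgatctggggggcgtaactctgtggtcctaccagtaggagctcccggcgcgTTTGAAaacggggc
Plk4: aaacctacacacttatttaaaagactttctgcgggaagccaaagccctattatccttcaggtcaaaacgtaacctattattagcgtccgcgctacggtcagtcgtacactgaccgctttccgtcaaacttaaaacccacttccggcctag
Fzr1: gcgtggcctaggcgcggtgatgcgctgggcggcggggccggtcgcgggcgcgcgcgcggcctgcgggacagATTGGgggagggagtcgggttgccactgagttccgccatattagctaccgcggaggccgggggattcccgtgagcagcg
Pttg1: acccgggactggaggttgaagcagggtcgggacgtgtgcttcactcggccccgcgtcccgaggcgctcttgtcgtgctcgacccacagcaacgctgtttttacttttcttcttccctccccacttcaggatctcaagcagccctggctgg

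The Cdc20 and Ube2c stretches each hold 1 CHR match and 2 CCAAT matches, and Cdk1 and Ccnf each have 2 of both. Top2a has 3 CHR and 4 CCAAT matches in this stretch. No CHR or CCAAT letters were found in 7 windows (15.2%, against 50.9% of all), those of Birc5, Mad2l1, Ncaph, Nuf2, Nusap1, Plk4 and Pttg1. All of these but Pttg1 were lower in HSC.

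**Figure D3:**
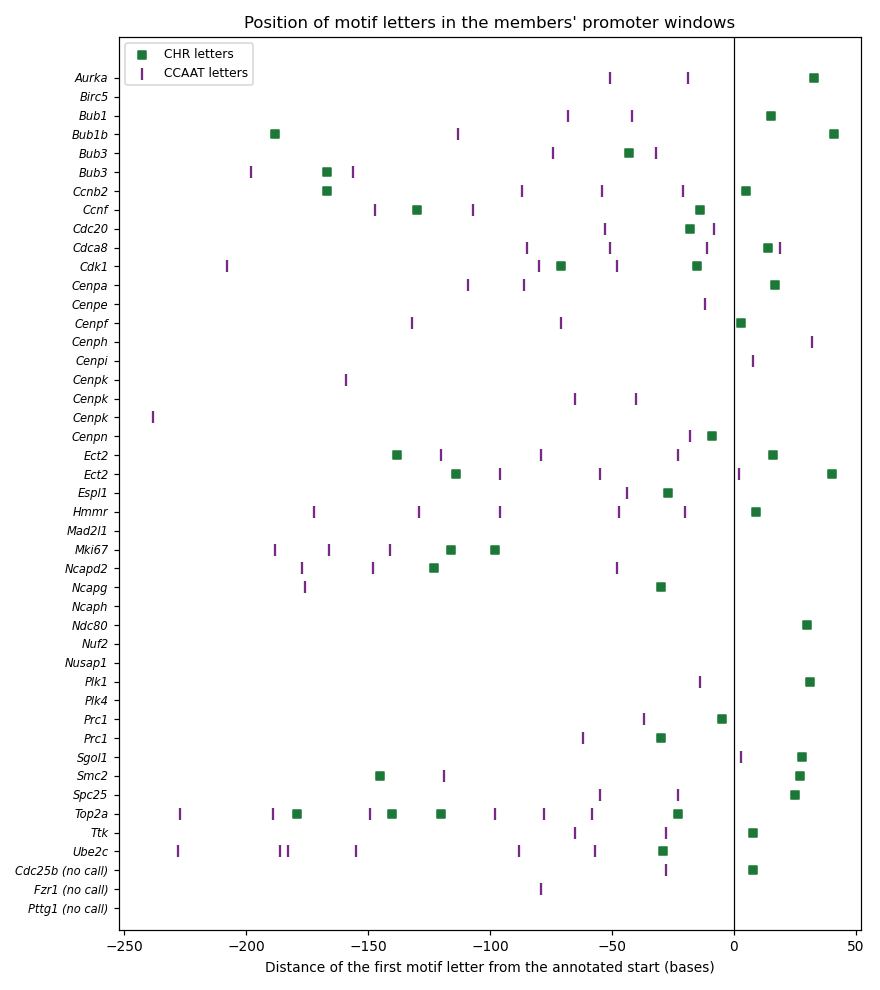
Position of CHR letters (squares) and CCAAT letters (bars) in the promoter windows of the members with a measured difference. The x axis is the distance in bases from the annotated start, from 250 before to 50 after it, with 1 row per window. CHR letters begin within 50 bases of the start in 28 windows, and CCAAT letters lie mostly before it.

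Both proliferation genes were lower in HSC. Mki67, which encodes the Ki-67 antigen that marks cycling cells, had signals of 555 and 546 in HSC, compared with 3127 and 2520.1 in MPP. Both HSC arrays were under both MPP arrays, and the difference was -2.34 ± 0.16 (SE, adjusted p = 2.11e-05). Top2a, the topoisomerase that untangles sister chromosomes, had 565 and 486 in the HSC samples and 2764 and 2411 in the MPP samples. Again the groups did not overlap, with HSC lower by 4.88-fold (-2.29 ± 0.16, adjusted p = 2.32e-05). Replicates of a group lay close together for both genes, and the groups were far apart. Both tested Top2a probe sets were lower in HSC, the smaller difference being -1.35.

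Of the 8 genes of cyclins, Cdk1 and its control, 5 were lower in HSC and 3 did not pass. Ccnb2, a B-type cyclin that activates Cdk1 in mitosis, had signals of 219.7 and 160.3 in HSC and 1103 and 867 in MPP. No HSC value reached an MPP value, and the difference was -2.34 ± 0.21 (SE, adjusted p = 8.98e-05). Ccna2, the A-type cyclin of S phase and early mitosis, gave 203 and 148 in HSC, compared with 1005 and 749 in MPP. The MPP arrays were the 2 brighter ones, and the step was 4.87-fold (-2.28 ± 0.22, adjusted p = 0.000130). Cdk1, the kinase that starts mitosis, had 284 and 138 in the HSC samples and 1099 and 942 in the MPP samples. As a ratio, its HSC arrays differed from each other by more than its MPP arrays did, yet both were under the MPP arrays, and the difference was -2.33 ± 0.28 (adjusted p = 0.000557). Ccnf, a cyclin that serves a ubiquitin ligase, had 30.8 and 13.3 in HSC and 109.8 and 102 in MPP, with HSC replicate 2 at or under its floor. The groups did not overlap and the difference was -2.07 ± 0.36 (adjusted p = 0.00428).

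The phosphatases and the kinase that set Cdk1 activity did not all follow. Cdc25c, a phosphatase that removes the inhibitory phosphates of Cdk1, had 12.0 and 17.0 in HSC, compared with 78.8 and 55.5 in MPP, with HSC replicate 1 at or under its floor. The groups did not overlap and the difference was -1.83 ± 0.36 (adjusted p = 0.00965), but the call was lost without MPP replicate 1, at -1.60 with adjusted p = 0.114. Cdc25b, a phosphatase of the same family, had 70.0 and 64.0 in the HSC samples and 106 and 99.9 in the MPP samples. Its HSC values were under its MPP values by a small step, and the difference was -0.58 ± 0.25 (adjusted p = 0.181). Wee1, the kinase that adds those inhibitory phosphates, had 382 and 325 in HSC and 515 and 507 in MPP. It too was lower on both HSC arrays without passing, and the difference was -0.53 ± 0.18 (adjusted p = 0.0897). It did pass without HSC replicate 1, at -0.64 with adjusted p = 0.0371, and with array medians made equal, at -0.76 with adjusted p = 0.0212. The second tested probe set of Wee1 had 28.8 and 34.7 in HSC against 35.4 and 28.9 in MPP. Its groups overlapped, and its difference was -0.015 (adjusted p = 0.986). Foxm1, the transcription factor that drives many genes of G2 phase and mitosis, had 84.9 and 60.6 in HSC, compared with 81.3 and 83.8 in MPP. Here the groups overlapped, the difference was -0.19 ± 0.27 (adjusted p = 0.726), and without HSC replicate 2 the difference was 0.038. Both tested probe sets of Foxm1 were slightly below 0 (-0.19 and -0.050).

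All 4 Aurora and Polo kinases were lower in HSC, by 3.53-fold to 5.41-fold. Aurkb, the Aurora kinase of the chromosomal passenger complex, had signals of 72.0 and 57.2 in the HSC samples and 408 and 343 in the MPP samples. HSC and MPP did not overlap, and Aurkb differed by -2.44 ± 0.22 (SE, adjusted p = 0.000104). Plk4, which starts centriole duplication, had 230.2 and 184 in HSC and 1053 and 796 in MPP. Plk4 was lower in HSC on every array, by 4.35-fold (-2.12 ± 0.20, adjusted p = 0.000134). Aurka, the Aurora kinase of centrosomes and spindle poles, gave 68.4 and 53.0 in HSC, compared with 248 and 209 in MPP. The HSC values were the lower ones here too, at -1.82 ± 0.24 (adjusted p = 0.000906). Plk1, which acts in mitotic entry, at kinetochores and in cytokinesis, had 38.2 and 26.6 in the HSC samples and 136 and 122 in the MPP samples. HSC values were again the lower, and the difference was -1.83 ± 0.28 (adjusted p = 0.00237). All 3 tested Plk4 probe sets and both of Aurkb were lower in HSC.

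The 5 spindle checkpoint genes were lower in HSC, 4 of them by more than 3-fold and Bub3 by less. Bub1, a kinase that recruits checkpoint proteins to kinetochores, had 49.6 and 48.3 in HSC and 456 and 314 in MPP. Both HSC arrays were under both MPP arrays, and the difference was -2.81 ± 0.24 (SE, adjusted p = 7.48e-05). Bub1b, which encodes BubR1, a part of the complex that inhibits APC/C, had 146 and 84.3 in HSC, compared with 986 and 658 in MPP. Again the groups did not overlap, with HSC lower by 6.93-fold (-2.79 ± 0.27, adjusted p = 0.000149). Mad2l1, the Mad2 protein of the same inhibitor, gave 422 and 339 in the HSC samples and 1365 and 1259 in the MPP samples. HSC stood under MPP on all arrays, at -1.78 ± 0.17 (adjusted p = 0.000149). Ttk, the Mps1 kinase that switches the checkpoint on, had 40.5 and 18.3 in HSC and 153 and 116 in MPP. HSC replicate 2 was near its floor for Ttk and both HSC arrays were under the MPP arrays, and the difference was -2.05 ± 0.35 (adjusted p = 0.00402). The second tested probe sets of Bub1 (-0.76) and Ttk (-0.99) did not pass.

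Bub3, the binding partner of Bub1 and BubR1, was the weakest of the lower genes. Its brightest probe set had 2124 and 1946 in HSC, compared with 3544 and 3133 in MPP, with no overlap, and the difference was -0.71 ± 0.15 (adjusted p = 0.0131). Only this probe set of 5 passed, and the others differed by -0.35 to 0.50. The mean over its probe sets was -0.044. Without MPP replicate 1 the difference was -0.62, and without MPP replicate 2 it was -0.80. The call was lost in both fits. Each has 1 MPP array and so less precision, and the loss does not show that the call rested on the array left out.

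Of the activators and the conjugating enzyme of APC/C, Cdc20 and Ube2c were lower in HSC and Fzr1 did not pass. Cdc20, the activator that the checkpoint holds back, had signals of 346 and 264 in the HSC samples and 1598 and 1333 in the MPP samples. No HSC value reached an MPP value, and the difference was -2.25 ± 0.19 (SE, adjusted p = 6.46e-05). Ube2c, which supplies ubiquitin to APC/C, had 68.7 and 49.2 in HSC and 363 and 330.5 in MPP. The MPP arrays were the 2 brighter ones, and the step was 5.49-fold (-2.46 ± 0.23, adjusted p = 0.000130). Fzr1, the Cdh1 activator that keeps APC/C active in G1, had 54.3 and 61.4 in HSC, compared with 73.8 and 62.9 in MPP. Its replicates were about as far apart as its groups, and the difference was -0.22 ± 0.27 (adjusted p = 0.679).

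The 7 CENP genes were all lower in HSC, by 2.84-fold to 7.15-fold. They span centromeric chromatin (Cenpa), the inner kinetochore (Cenph, Cenpi, Cenpk and Cenpn) and the outer surface of the kinetochore (Cenpe and Cenpf). Cenpf, a large coiled-coil protein of the outer kinetochore, had 72.3 and 41.3 in the HSC samples and 487 and 379 in the MPP samples. HSC and MPP did not overlap, and Cenpf differed by -2.84 ± 0.27 (SE, adjusted p = 0.000135). Cenpa, the histone H3 variant that marks centromeres, had 196 and 197 in HSC and 725 and 614 in MPP. Cenpa was lower in HSC on every array, by 3.33-fold (-1.73 ± 0.18, adjusted p = 0.000236). Its second tested probe set differed by -0.65 and did not pass. Cenpn, which reads Cenpa nucleosomes, gave 91.9 and 88.8 in HSC, compared with 381 and 330.0 in MPP. The HSC values were the lower ones here too, at -1.90 ± 0.21 (adjusted p = 0.000277). Cenpi, of the inner kinetochore network, had 19.7 and 15.7 in the HSC samples and 123 and 132 in the MPP samples, with HSC replicate 2 at or under its floor. The groups stood well apart, and the difference was -2.49 ± 0.30 (adjusted p = 0.000475).

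The other CENP genes were lower as well. The motor Cenpe, which carries chromosomes along microtubules, differed by -2.13 ± 0.27 (adjusted p = 0.000810). Cenph and Cenpk, neighbours in the inner network, differed by -1.79 ± 0.25 (adjusted p = 0.00122) and -1.51 ± 0.24 (adjusted p = 0.00310). Of the 3 tested Cenpk probe sets 2 were lower, and both of Cenpe were. Of the 3 of Cenpf 1 was, and the others were -0.67 (adjusted p = 0.391) and -0.87 (adjusted p = 0.124).

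The NDC80 complex, a rod of 4 proteins that grips the microtubule, was lower in HSC in all 4 subunits, by 2.53-fold to 4.77-fold. Spc25, on the inner end of the rod, had signals of 111 and 127 in HSC and 654 and 419.7 in MPP. Both HSC arrays were under both MPP arrays, and the difference was -2.09 ± 0.24 (SE, adjusted p = 0.000363). Nuf2, on the outer end, had 67.4 and 38.8 in HSC, compared with 283 and 253 in MPP. Again the groups did not overlap, with HSC lower by 4.77-fold (-2.25 ± 0.27, adjusted p = 0.000550). Ndc80, which touches the microtubule, gave 57.5 and 29.4 in the HSC samples and 276 and 153 in the MPP samples. Replicates differed most here, by nearly the same ratio in each group, and the groups still did not overlap, and the difference was -2.16 ± 0.35 (adjusted p = 0.00310). Spc24, the partner of Spc25, had 78.4 and 74.7 in HSC and 203 and 202 in MPP. Its replicates nearly coincided, and the difference was -1.34 ± 0.22 (adjusted p = 0.00332).

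The 3 partners of Aurkb in the chromosomal passenger complex were lower in HSC. Cdca8, which encodes borealin, had 469 and 493 in HSC, compared with 2567 and 1839 in MPP. No HSC value reached an MPP value, and the difference was -2.16 ± 0.19 (SE, adjusted p = 7.34e-05). Birc5, which encodes survivin and brings the complex to centromeres, gave 73.5 and 92.5 in the HSC samples and 413 and 339.6 in the MPP samples. The MPP arrays were the 2 brighter ones, and the step was 4.3-fold (-2.10 ± 0.22, adjusted p = 0.000234). Incenp, the scaffold that activates Aurkb, had 499 and 901 in HSC and 2822 and 2410.2 in MPP. HSC replicate 2 was the brighter HSC array for Incenp, and the difference was -1.95 ± 0.24 (adjusted p = 0.000630). All 3 tested Cdca8 probe sets and 2 of the 3 of Incenp were lower in HSC. The brightest of Incenp ends in _x, and the others of Incenp were -1.11 (adjusted p = 0.0259) and -0.61 (adjusted p = 0.241). By their brightest probe sets, the 4 genes of the complex, Aurkb included, lay between -1.95 and -2.44.

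Of the genes that hold and release sister chromatids, 2 were lower in HSC and Pttg1 did not pass. Sgol1 (shugoshin, matched as Sgo1), which shields centromeric cohesin, had signals of 49.2 and 30.7 in HSC, compared with 400.3 and 278 in MPP. HSC and MPP did not overlap, and Sgol1 differed by -2.92 ± 0.28 (SE, adjusted p = 0.000135). Espl1, the protease separase that opens cohesin, had 25.2 and 45.3 in the HSC samples and 101 and 134 in the MPP samples. The groups did not overlap and the difference was -1.61 ± 0.32 (adjusted p = 0.00965), but the call was lost without MPP replicate 2, at -1.42 with adjusted p = 0.0720. Pttg1, which encodes securin, the inhibitor of separase, had 1531 and 1842 in HSC and 1315 and 1101 in MPP. The HSC arrays were both above the MPP arrays, the reverse of the 47 members with both HSC arrays below, and the difference was 0.48 ± 0.17 (adjusted p = 0.105).

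Securin therefore had no call in the main comparison, and its probe sets lay on one side. Its other tested probe sets had 175 and 152 against 118 and 130 (0.38 ± 0.22, adjusted p = 0.328), and 49.8 and 85.6 against 33.2 and 34.5 (0.84 ± 0.33, adjusted p = 0.148). In each, both HSC arrays were the brighter. The brightest probe set was called higher in HSC with quantile normalization, at 0.61 with adjusted p = 0.0271, and without HSC replicate 1, at 0.61 with adjusted p = 0.0237. Pttg1 was the 1 member of 49 above 0.

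The 5 genes of spindle assembly and cytokinesis had the lowest median of any role, -2.78, and fell by 4.61-fold to 7.67-fold. Prc1, which bundles the microtubules of the central spindle, had signals of 80.2 and 73.6 in HSC, compared with 504 and 429 in MPP. Both HSC arrays were under both MPP arrays, and the difference was -2.51 ± 0.21 (SE, adjusted p = 5.74e-05). Ect2, the exchange factor that starts the contractile ring, had 168 and 99.2 in the HSC samples and 1064 and 840.0 in the MPP samples. Ect2 was lower in HSC on every array, by 7.03-fold (-2.81 ± 0.25, adjusted p = 8.26e-05). Tpx2, which nucleates spindle microtubules and activates Aurka, gave 89.1 and 84.9 in HSC and 478 and 374 in MPP. HSC stood under MPP on all arrays, at -2.21 ± 0.21 (adjusted p = 0.000135). Of 4 tested Tpx2 probe sets 2 were lower, and 1 lay above 0 (36.8 and 45.3 in HSC against 33.4 and 42.0 in MPP, a difference of 0.11 ± 0.33, adjusted p = 0.878). Nusap1, which binds spindle microtubules near chromosomes, had 157 and 89.0 in HSC, compared with 1049 and 690.1 in MPP. The lower MPP array was still over 4 times the higher HSC array, and the difference was -2.78 ± 0.28 (adjusted p = 0.000172). Its second tested probe set was -0.27 (adjusted p = 0.783).

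Hmmr, a spindle-pole protein and hyaluronan receptor, had the largest difference of the 49 genes, with signals of 65.1 and 19.4 in the HSC samples and 373 and 275 in the MPP samples. Its HSC arrays were also far from each other, and the difference was -2.94 ± 0.41 (adjusted p = 0.00124). Without HSC replicate 2 it was -2.20 and no longer the largest, that of Bub1 being -2.79, and without HSC replicate 1 it was -3.68. Of its 4 tested probe sets 2 were lower in HSC and all were below 0, the smallest difference being -1.16. With probe sets ending in _x, _s or _a left out, Bub3 had -0.0056 with adjusted p = 0.992, Hmmr had -1.25 with adjusted p = 0.205, Cenpa had -0.65 with adjusted p = 0.240 and Spc25 had -1.33 with adjusted p = 0.136, none of which passed.

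Condensin, the ring that compacts mitotic chromosomes, was lower in HSC in all 5 members, by 2.12-fold to 4.52-fold. Ncaph, the kleisin that closes the ring, had 94.4 and 137 in HSC and 561 and 509 in MPP. No HSC value reached an MPP value, and the difference was -2.17 ± 0.22 (SE, adjusted p = 0.000180). Ncapd2, a HEAT-repeat subunit, had 207 and 188 in HSC, compared with 636 and 663 in MPP. Again the groups did not overlap, with HSC lower by 3.22-fold (-1.69 ± 0.18, adjusted p = 0.000241). Smc2, one of the ATPase arms, gave 174 and 127 in the HSC samples and 493 and 497 in the MPP samples. The HSC values were the lower ones here too, at -1.69 ± 0.21 (adjusted p = 0.000564). Smc4, the other arm, had 1138 and 1070.5 in HSC and 2556 and 2162 in MPP. The step was small and the replicates lay close, and the difference was -1.09 ± 0.16 (adjusted p = 0.00163). Ncapg, a second HEAT-repeat subunit, differed by -1.38 ± 0.24 (adjusted p = 0.00419).

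Other genes of cell division, 115 in all and not members, were read in the same fit. Of 107 tested, 47 were lower in HSC, 1 was higher and 59 did not pass, with a median of -0.73, against 44, 0 and 5 of 49 and -2.10 for the members. Without MPP replicate 1 only 30 of the 107 were lower. These lists differ in make-up from the members, and the difference between them was not tested.

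Of the listed mitotic kinesins, motors of the spindle, 9 of 9 tested were lower in HSC. Kif2c, which takes microtubules apart at centromeres, had 24.0 and 45.0 in HSC against 325 and 278 in MPP and a difference of -2.97 ± 0.29 (adjusted p = 0.000141). Kif22, which pushes chromosome arms outward, had 474 and 421 in HSC against 1324 and 1589 in MPP and a difference of -1.68 ± 0.17 (adjusted p = 0.000183). Kif20b, a motor of cytokinesis, differed by -1.91 ± 0.26 (adjusted p = 0.00124). Their HSC and MPP arrays did not overlap. With probe sets ending in _x, _s or _a left out, Kif2c (-1.08, adjusted p = 0.135) and Kif20b (-0.47, adjusted p = 0.522) did not pass. Kif2a, a kinesin read in the list of centrosome, spindle and cytokinesis genes, went the other way without passing. It had 683 and 561 in HSC against 431 and 435 in MPP (0.51 ± 0.18, adjusted p = 0.0995).

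Proteins around the members' complexes were divided. Of the MIS12 complex, Knl1 and other centromere proteins, 10 of 22 were lower in HSC and 1 was higher. Knl1, the scaffold to which Bub1 binds, had 33.8 and 35.8 in HSC against 309 and 301 in MPP and a difference of -2.93 ± 0.23 (adjusted p = 4.15e-05). Its second tested probe set differed by -0.97 and did not pass. Cenpm and Cenpp, of the inner network, differed by -2.16 ± 0.28 (adjusted p = 0.000813) and -1.61 ± 0.27 (adjusted p = 0.00407). Cenpt, an inner kinetochore protein that binds NDC80, was the 1 gene higher in HSC, with 427 and 448 in HSC against 172 and 157 in MPP and a difference of 1.38 ± 0.19 (adjusted p = 0.00109). For Cenpt, which had 1 tested probe set, both HSC arrays were the brighter, while all 4 NDC80 subunits were lower. Without HSC replicate 2 a second gene, the motor Kif2a, also passed as higher (named after its values were seen).

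In the RZZ group and other checkpoint proteins, 4 of 6 were lower in HSC. Trip13, which recycles Mad2, differed by -1.53 ± 0.17 (adjusted p = 0.000300). Kntc1, a subunit of RZZ, and Spdl1, the adaptor spindly, differed by -1.97 ± 0.22 (adjusted p = 0.000373) and -1.61 ± 0.28 (adjusted p = 0.00482). Further mitotic kinases and partners of Cdk1 were lower in 8 of 13, led by Melk with 33.8 and 44.7 in HSC against 337 and 243 in MPP and a difference of -2.70 ± 0.26 (adjusted p = 0.000135). Pbk, a mitotic kinase, differed by -2.24 ± 0.22 (adjusted p = 0.000156), and Cks2, a small partner of Cdk1, by -1.67 ± 0.17 (adjusted p = 0.000203).

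The core subunits of APC/C had no calls. None of the 14 tested was called lower or higher in limma, their median was -0.11, and 10 were below 0. At an unadjusted p under 0.05, 3 were lower and 0 higher. The smallest p belonged to Anapc15, with 94.0 and 75.9 in HSC against 138 and 169 in MPP and a difference of -0.81 ± 0.24 (adjusted p = 0.0596), and to Cdc26, with 259 and 252 in HSC against 384 and 353 in MPP and a difference of -0.52 ± 0.18 (adjusted p = 0.105). In these genes HSC and MPP did not overlap. Anapc15 passed without HSC replicate 1 (-0.95, adjusted p = 0.0294) and with quantile normalization (-0.92, adjusted p = 0.0440), and with array medians made equal Anapc15 (-1.04, adjusted p = 0.0211) and Cdc26 (-0.75, adjusted p = 0.0239) did. Of 4 partners of APC/C, Fbxo5, its inhibitor Emi1, was lower, with 185 and 221 in HSC against 631 and 503 in MPP and a difference of -1.45 ± 0.20 (adjusted p = 0.00116).

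Cohesin and its regulators were lower in 4 of 13. Cdca5, which encodes sororin, had 224 and 242 in HSC against 1086 and 1063 in MPP and a difference of -2.18 ± 0.17 (adjusted p = 3.85e-05). Esco2, an acetyltransferase that establishes cohesion, did not exceed the floor on either HSC array and was at least 4.89-fold lower (adjusted p = 0.00391), and without MPP replicate 1 it did not pass (-1.88, adjusted p = 0.0552). Sgo2a, the second shugoshin, differed by -1.20 ± 0.32 (adjusted p = 0.0367) and lost its call without HSC replicate 2 (-0.76, adjusted p = 0.103), without MPP replicate 1 (-1.01, adjusted p = 0.183) or without MPP replicate 2 (-1.38, adjusted p = 0.0513). Of condensin II, whose Smc2 and Smc4 arms are shared with condensin, 1 of 3 was lower, Ncapg2 at -1.93 ± 0.23 (adjusted p = 0.000475).

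Centrosome, spindle and cytokinesis genes were lower in HSC in 10 of 17. Cep55, which acts at the last step of cell separation, had 84.7 and 53.6 in HSC against 796 and 659 in MPP and a difference of -3.31 ± 0.24 (adjusted p = 2.48e-05). Aspm, a protein of spindle poles, differed by -1.94 ± 0.23 (adjusted p = 0.000470), and Ckap2l by -1.55 ± 0.21 (adjusted p = 0.000941). The MuvB core with B-Myb, the complex that binds CHR letters, had 0 of 6 passing in limma (3 lower and 0 higher at an unadjusted p under 0.05). Lin54, its DNA-binding subunit, had 99.5 and 101 in HSC against 192 and 147 in MPP and a difference of -0.71 ± 0.23 (adjusted p = 0.0800), and Lin9 differed by -0.73 ± 0.24 (adjusted p = 0.0863). Both passed with array medians made equal, at -0.95 (adjusted p = 0.0235) and -0.96 (adjusted p = 0.0273). Mybl2, which encodes B-Myb, had 15.1 and 15.4 in HSC against 38.4 and 42.7 in MPP. It did not exceed the floor on either HSC array and was at least 2.41-fold lower without passing (adjusted p = 0.0879).

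**Figure D4:**
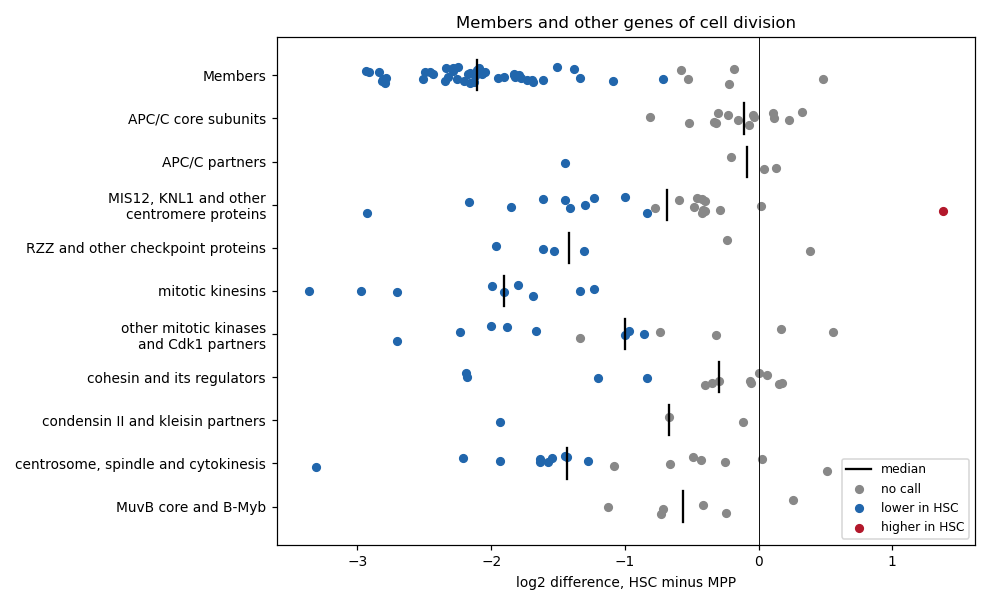
Log2 difference between HSC and MPP for the members and for the other genes of cell division, in 10 lists. Each point is 1 gene, the x axis is the difference, and the black bars are medians. The members' median is -2.10, and all 9 genes of the mitotic kinesin list are lower in HSC. The 14 core subunits of APC/C lie around -0.11 with no call.

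The promoter letters of these further genes were read beside the call. CHR letters were in 32 of 46 windows (69.6%) of the genes lower in HSC and in 15 of 58 (25.9%) of those without a call. CCAAT letters were in 23 of 46 and in 30 of 58 (51.7%). Both kinds were together in 34.8% and 13.8%, against 65.2% of the members' windows. E2F letters were in 15.2% and 15.5%, against 10.9% of the members' windows. These are descriptions with no test, and no match says only that these letters are not in this window.

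**Figure D5:**
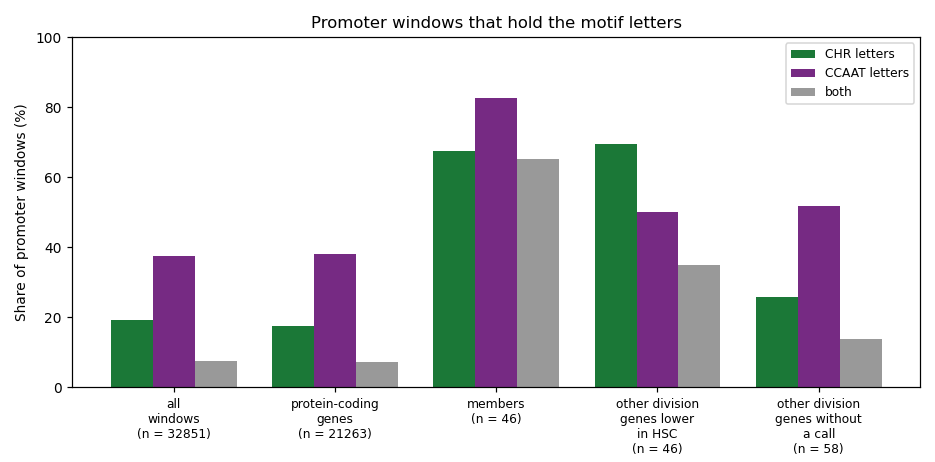
Share of RefSeq promoter windows that hold CHR letters, CCAAT letters or both, in percent. Bars are grouped by set, with the number of windows (n) under each. The members reach 67.4% for CHR and 82.6% for CCAAT letters, against 19.2% and 37.4% of all windows.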

How the data were processed

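The assay measured RNA in 2 HSC and 2 MPP samples on 1 type of Affymetrix mouse genome array, after 2 cycles of amplification from RNA equivalent to 3000 cells, per the labels' protocols, which favours 3' ends. The deposited intensity of a probe set is linear and has no physical unit, and the software behind it is not given in the sources that were used. Each array's mean without the lowest and highest 2% was 100.0, as the deposited values show. Array number limits the precision.

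Of 45101 probe sets, 64 controls were left out. The platform's symbols, brought up to date with RefSeq (GRCm38.p6) by gene identifier, gave 34945 probe sets 1 symbol, 932 several and 9160 none, and only the first kind named a gene. A probe set that names Foxm1 with other genes was therefore not used. Sgol1 was matched as Sgo1. The scale was log2(intensity + 6.01), whose pseudocount is 0.25 of the median of all values, and the lowest 40% by mean were dropped, leaving 27022 probe sets. HSC and MPP were compared in limma 3.58.1 (R 4.3.3, lmFit, eBayes with trend, 2-sided), with Benjamini-Hochberg adjustment over those probe sets at 0.05. Residual degrees of freedom were 2 and prior ones 8.48. Each gene takes the values of its brightest tested probe set. A gene that exceeds the floor on neither array of a group is given as at least N-fold, against the higher of each array's floor and its own signal. That fold is taken on log2 signal without the pseudocount, unlike the differences and other folds.

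All members are named. Array values are given, in each role, for up to 4 members with the smallest p, for those that did not pass and for those with a probe set going the other way; Hmmr and Cdc25c were added after their values were seen. Of each further list, up to 3 genes that passed per direction are named by smallest p, or 2 where none passed. Kif2a and Mybl2 were added after their values were seen. The members and lists were chosen with earlier results of these data known.

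Alternatives were the pseudocount, the filter, scaling, the trend, the replicate block, each array left out, the mean of a gene's probe sets and leaving out _x, _s and _a probe sets. With 1 array left in a group, that array is assumed to vary like the other group. The script was tested on simulated data.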

Additional observations from a re-analysis of the deposited data

How the results depend on the processing

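Of the 44 member genes lower in HSC, 33 were called lower in all of the 13 alternatives they could enter and 11 lost the call in at least 1. Lower members numbered 32 (of 40 left without _x, _s and _a probe sets) to 45, and 42 to 45 with 1 array left out, and lower member probe sets 52 to 72 and 57 to 72. The members' median was -1.78 with a gene's probe sets averaged and -1.83 without _x, _s and _a probe sets, and -1.86 to -2.25 with 1 array left out. Members called higher were 1 gene and 1 probe set with quantile normalization, and 0 to 1 and 0 to 2 with 1 array left out. With 1 array left out Foxm1 lay between -0.41 (without HSC replicate 1) and 0.038 (without HSC replicate 2), a change of sign. Without the trend Ttk, Cenpk, Ndc80, Espl1, Ncapg, Smc4, Bub3, Cenpp, Spdl1 and Sgo2a lost their calls, without _x, _s and _a probe sets Hmmr, Cenpa, Spc25, Bub3, Kif2c and Kif20b did, and without the filter Cdc25c, Bub3 and Sgo2a did. Genes called higher overall were 620 with equal medians, 575 without the filter, 380 without the trend and 603 to 1133 with 1 array left out, and genes called lower 1345, 482, 232 and 351 to 1063. Probe sets called higher were 1020, 917, 633 and 1026 to 2011, and lower 2379, 780, 374 and 568 to 1908. Other division genes called lower were 26 without the trend and 30 to 51 with 1 array left out, and called higher 1 to 2, and their median was -0.96 with equal medians and -0.62 to -0.79 with 1 array left out. With a replicate block 44 members were lower, Anapc15 and Lin54 passed, and 2525 probe sets were higher overall. In the labels, same-numbered replicates of HSC and MPP share only a number. Over all probe sets tested, deviations of same-numbered arrays correlated at 0.027, which cannot show whether the samples were paired. The members were brighter on replicate 1 in both groups, by a median of 0.24 log2 units in HSC and 0.24 in MPP. The block left 1 residual degree of freedom. Cdc25c, Ccnf and Cenpi have 1 HSC array at or under its floor, which limits their folds.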
